A study of Homo sapiens with 15 samples.

Results

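Transcript levels were compared between HEK293T cells transfected with siRNA against DCP2 and HEK293T cells transfected with siRNA against GAPDH. HEK293T is an established line derived from human embryonic kidney. The comparison used the 3 arrays titled Dcp2 siRNA and the 3 titled GAPDH siRNA, which are 6 of the 15 arrays in the series. They were chosen by title alone. The other 3 groups, of 3 arrays each, received LOC550643 siRNA, DcpS siRNA or a non-silencing siRNA, a control designed to match no human gene. The non-silencing level is given beside each gene as a point of reference that neither siRNA targets. Cells of all 5 groups, the controls included, received actinomycin D at 1 ug/mL for 4 h, starting 48 h after transfection, and total RNA was hybridised to Affymetrix whole-transcript arrays. In the submitters' design text Dcp2 was the comparison related to mRNA decapping and GAPDH was an unrelated negative control, so this pair sets the decapping enzyme against a second targeting siRNA in place of the non-silencing one. The labels do not say whether the 3 samples of a group were separate cultures, so the p-values reflect variation among these arrays only, part of which may be technical.

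DCP2 is the catalytic subunit of the main mRNA decapping complex. It removes the 5′ cap of mRNAs, usually after their poly(A) tail has been shortened, with DCP1A or DCP1B and EDC4 as partners, and the exonuclease XRN1 then degrades the uncapped body from its 5′ end. These factors gather with the helicase DDX6 in cytoplasmic granules called P-bodies. GAPDH is the glycolytic enzyme that oxidises glyceraldehyde 3-phosphate, and its mRNA is widely used as a reference transcript. Actinomycin D stops RNA synthesis, so a level at harvest depends both on the level before the drug and on the loss of the transcript during it, and these cannot be told apart here. In bulk RNA, a smaller number of cells with a transcript and less of it per cell cannot be told apart either. Values are log2 units, on which a difference of 1 is 2-fold, and differences are Dcp2 mean minus GAPDH mean, so that a positive value means a higher level with Dcp2 siRNA.

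The targeted transcripts were each low in the arm named for them. DCP2 read 6.23, 6.42 and 6.36 on the Dcp2 arrays against 8.50, 8.27 and 8.43 on the GAPDH arrays and 7.98, 8.22 and 8.21 on the non-silencing arrays. The Dcp2 arrays were the low ones, and the gap to the lowest GAPDH array was far wider than the spread within either group. The difference was -2.06 (SE 0.13, 95% interval -2.33 to -1.80, limma adjusted p = 4.24e-07), which left 23.9% of the level in the GAPDH arm. GAPDH read 7.18, 7.26 and 7.26 on the Dcp2 arrays, 6.10, 6.11 and 5.69 on the GAPDH arrays and 7.12, 7.17 and 7.30 on the non-silencing arrays. The GAPDH arrays were the low ones, and the Dcp2 and non-silencing arrays overlapped. The difference was 1.26 (SE 0.11, 95% interval 1.02 to 1.51, adjusted p = 2.17e-05), so that 41.7% of the level in the Dcp2 arm remained. In the groups that enter neither arm DCP2 read 8.56, 8.40 and 8.66 with LOC550643 siRNA and 7.34, 7.60 and 7.87 with DcpS siRNA, so each of these 6 arrays was also above the 3 Dcp2 arrays. GAPDH there read 7.02 to 7.36, above the 3 GAPDH arrays.

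**Figure D1:**
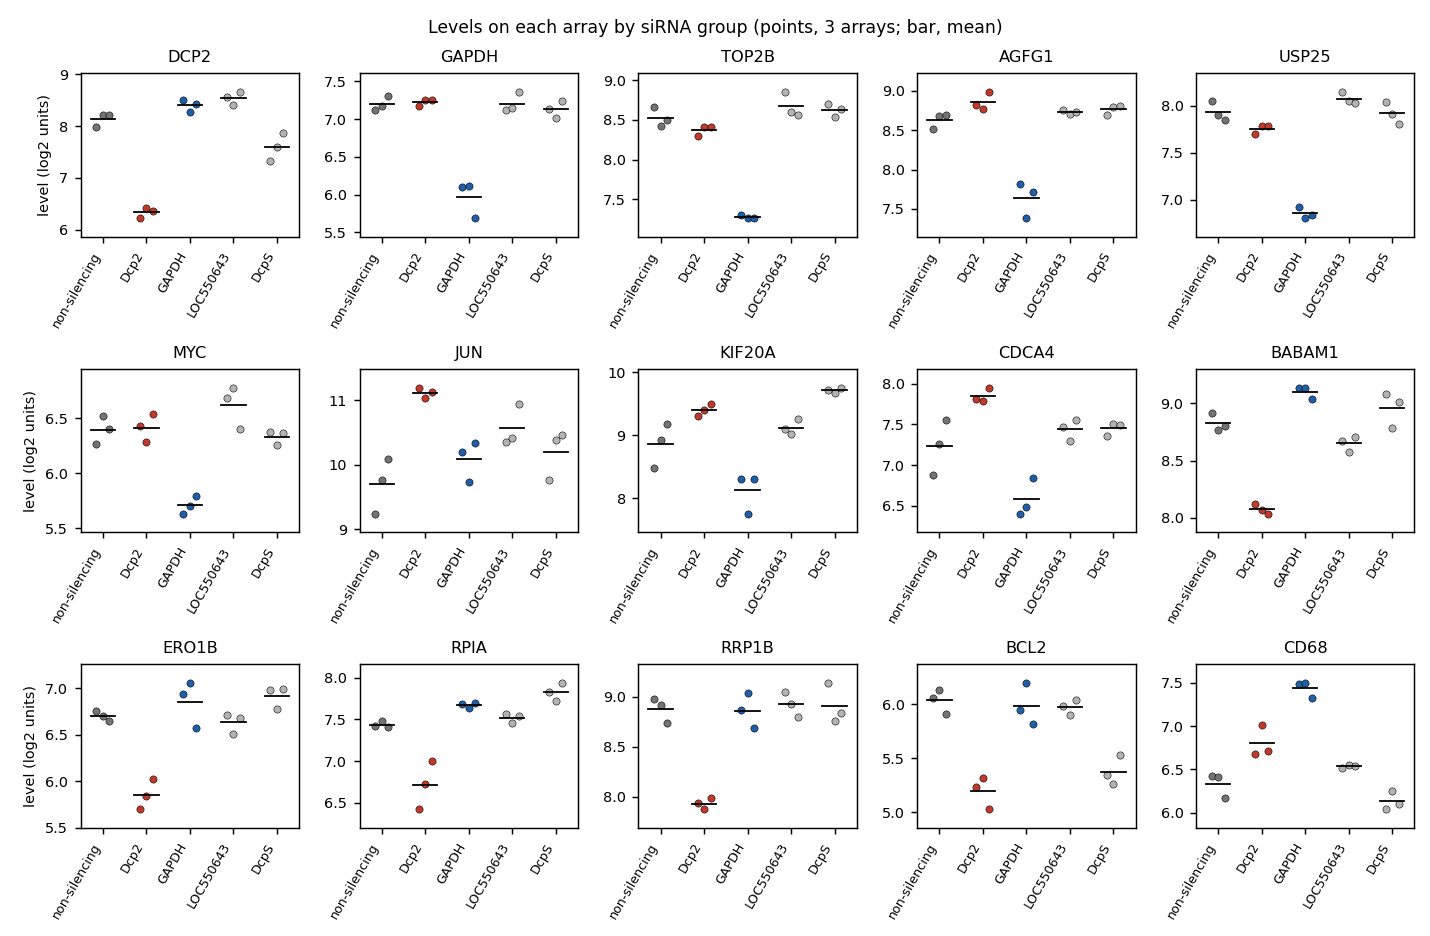
Level (log2 units, vertical axis) of 15 genes on each of the 15 arrays, by siRNA group. Points are arrays and bars are group means of 3 arrays. In the DCP2 and BABAM1 panels the red Dcp2 points lie below all other groups, and in the GAPDH, TOP2B and USP25 panels the blue GAPDH points do.

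The arrays themselves were alike. Array medians over the 53617 probe sets lay between 4.01 and 4.08, the correlation between arrays within the Dcp2 or GAPDH group lay between 0.986 and 0.991, and that between a Dcp2 and a GAPDH array between 0.984 and 0.988. Of 12 markers listed for HEK293T, 8 were measured. KRT18, an epithelial keratin of these cells, was at 8.71 in the Dcp2 and 8.77 in the GAPDH group (8.69 in non-silencing), and IRS4, an insulin receptor substrate abundant in this line, at 8.27 ± 0.19 and 8.63 ± 0.33 (9.44 ± 0.37 in non-silencing, SD, n = 3 each). Of the 8, LHX1, a kidney developmental transcription factor, was called higher at 0.39 (adjusted p = 0.0434, 5.75 ± 0.08 in non-silencing), beside 1.74% over all genes. The LHX1 call was lost under 13 of 17 alternative settings. At an unadjusted p under 0.05, 1 of the 8 was higher and 2 were lower. VIM had the largest difference, at -0.43 (95% interval -0.76 to -0.10, adjusted p = 0.168, 8.06 ± 0.33 in non-silencing). Its other probe sets differed by -0.30 and -0.10. For IRS4, Dcp2 minus non-silencing was called at -1.18 (adjusted p = 0.0307), a call lost under 6 of 17 alternative settings. Of 22 measured markers of other cell types, 11 in the Dcp2 and 10 in the GAPDH group lay above 4.05, the median of all values, so these lists were not uniformly dim. The highest were CD68 at 6.80 ± 0.18 and 7.43 ± 0.10 and the tight junction gene CLDN3 at 6.47 and 6.36, and the low ones held CD14 at 3.46 and 3.57, LYZ at 3.17 and 3.02 and PECAM1 at 3.51 ± 0.23 and 3.05 ± 0.14. In non-silencing these 5 were at 6.33 ± 0.14, 6.33 ± 0.07, 3.52 ± 0.05, 2.94 ± 0.11 and 3.16 ± 0.07. Of 7 measured fibroblast and endothelial markers 0 were called by limma (1 higher and 1 lower at an unadjusted p under 0.05), and of 10 epithelial and liver markers 0 (0 at an unadjusted p under 0.05), with the largest difference at KRT19 (0.26, 3.95 ± 0.29 in non-silencing).

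Of 14884 genes, 415 differed between the arms at a limma adjusted p under 0.05, which is 2.79% of those tested. With Dcp2 siRNA 259 were higher (1.74%) and 156 lower (1.05%), so 62.4% of the calls were higher. After a further quantile normalization 216 were higher and 207 lower, which is 51.1% higher, so the balance of directions depends on the scaling. The differences were moderate. The median size was 0.55 among the higher and 0.48 among the lower genes, 170 higher and 70 lower genes passed 0.5, and 13 higher and 2 lower genes passed 1. The 3 Dcp2 and 3 GAPDH arrays did not overlap for any of the 415 called genes, against 21.6% of all genes. At an unadjusted p under 0.05 there were 2357 genes. The number of calls fell to 205, 201 and 228 without Dcp2 replicate 1, 2 and 3, to 248 and 181 without GAPDH replicate 1 and 2, and to 273 when only the 6 arrays were fitted.

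**Figure D2:**
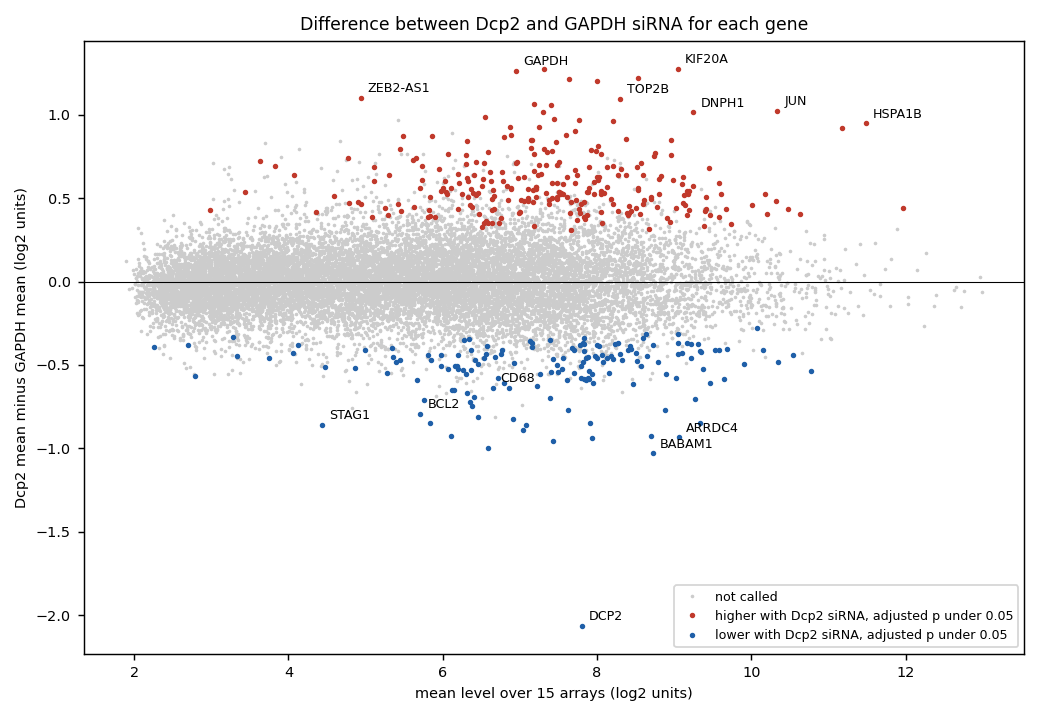
Difference between the Dcp2 and GAPDH group means (log2 units, vertical axis) of each of 14884 genes against its mean level over 15 arrays (log2 units, horizontal axis). Red points are the 259 genes called higher and blue points the 156 called lower with Dcp2 siRNA. DCP2, at -2.06, lies far below all others, and calls occur from dim to bright genes.

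A difference between 2 targeting siRNAs can come from either arm, and each arm was therefore set beside non-silencing. Against that reference 294 genes (1.98%) were called with Dcp2 siRNA and 297 (2%) with GAPDH siRNA. Both of these contrasts use the same 3 non-silencing arrays, so their values are only given side by side. The 6 LOC550643 and DcpS arrays enter neither mean of the comparison. Over the 259 higher genes the mean of these 6 arrays was nearer to the Dcp2 mean for 189 (73.0%) and nearer to the GAPDH mean for 70 (27.0%). Over the 156 lower genes it was nearer to the Dcp2 mean for 61 (39.1%) and nearer to the GAPDH mean for 95 (60.9%). Over all genes the shares were 50.6% and 49.4%.

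**Figure D3:**
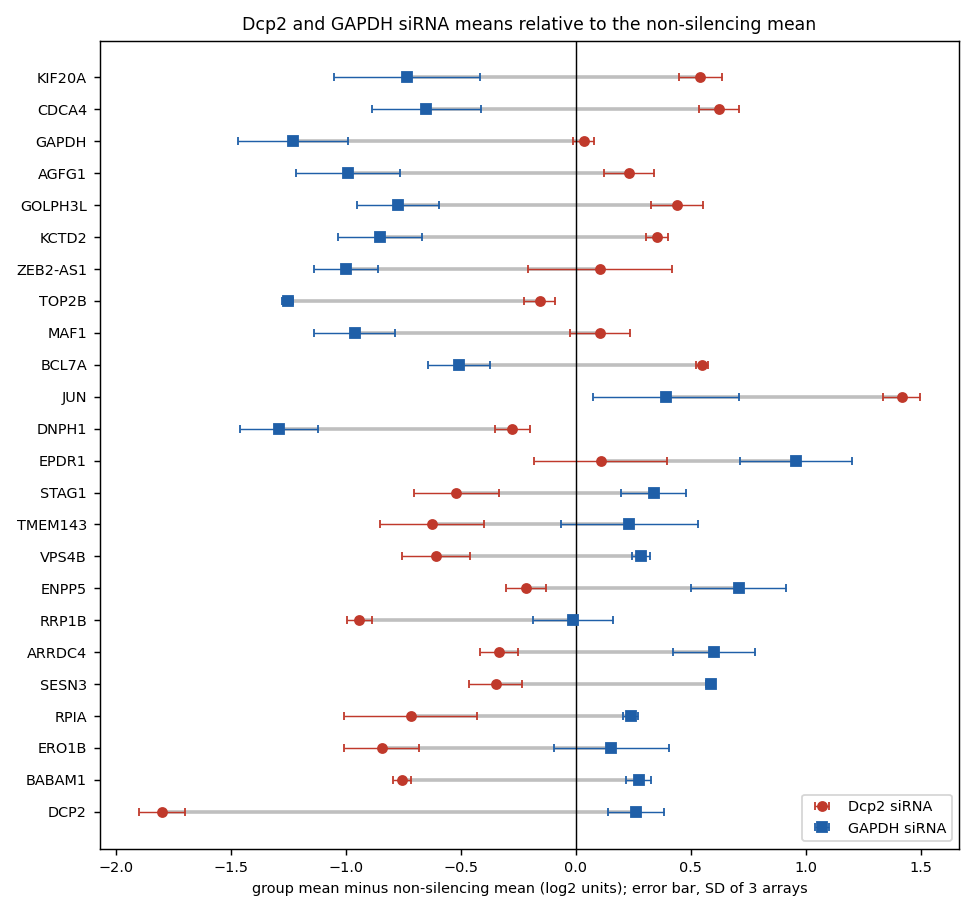
Mean of the Dcp2 arrays (red circles) and of the GAPDH arrays (blue squares) minus the non-silencing mean (log2 units, horizontal axis) for the 24 genes with the largest called differences, 12 in each direction. Error bars are the SD of 3 arrays. The red and blue marks of TOP2B and RRP1B show opposite cases. For TOP2B the GAPDH mean stands away from 0, and for RRP1B the Dcp2 mean does.

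Among the genes with the largest positive differences, one set was low in the GAPDH arm and near the reference in the Dcp2 arm. TOP2B, which encodes DNA topoisomerase II beta, an enzyme that passes DNA strands through a double-strand break to relieve torsion, read 8.30, 8.41 and 8.41 on the Dcp2 arrays, 7.30, 7.26 and 7.26 on the GAPDH arrays and 8.67, 8.42 and 8.50 on the non-silencing arrays. The GAPDH arrays were the low ones and overlapped neither other group. The 6 LOC550643 and DcpS arrays read 8.54 to 8.85. The difference was 1.10 (SE 0.10, 95% interval 0.89 to 1.30, adjusted p = 1.66e-05). GAPDH minus non-silencing was -1.25 (adjusted p = 6.19e-06) and Dcp2 minus non-silencing -0.16 (adjusted p = 0.464). AGFG1, an Arf-GAP-like protein with phenylalanine-glycine repeats that binds the clathrin machinery, read 8.82, 8.77 and 8.98 on the Dcp2 arrays and 7.82, 7.38 and 7.71 on the GAPDH arrays, with a non-silencing mean of 8.63 ± 0.10. Its difference was 1.22 (SE 0.11, adjusted p = 1.66e-05), and its GAPDH arrays were again the low ones, at -0.99 against non-silencing (adjusted p = 8.29e-05) and with 8.69 to 8.81 on the 6 LOC550643 and DcpS arrays.

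USP25, a deubiquitinase, showed the same arrangement, with 7.70, 7.78 and 7.79 on the Dcp2 arrays, 6.92, 6.80 and 6.84 on the GAPDH arrays and 7.93 ± 0.11 in non-silencing. The difference was 0.90 (SE 0.09, adjusted p = 4.74e-05), and GAPDH minus non-silencing was -1.08 (adjusted p = 1.07e-05). DNPH1, which cleaves the damaged nucleotide 5-hydroxymethyl-deoxyuridine monophosphate, read 9.28, 9.27 and 9.41 against 8.39, 8.41 and 8.11, a difference of 1.02 (SE 0.12, adjusted p = 0.000199), with 9.60 ± 0.22 in non-silencing. GAPDH minus non-silencing was -1.29 (adjusted p = 2.48e-05) and Dcp2 minus non-silencing -0.28, which was not called (adjusted p = 0.253). MAF1, the repressor of RNA polymerase III, read 7.60, 7.34 and 7.45 against 6.57, 6.21 and 6.41, a difference of 1.07 (SE 0.12, adjusted p = 0.000166). Its Dcp2 mean was close to the non-silencing mean of 7.36 ± 0.07, and its GAPDH mean was -0.96 from it (adjusted p = 0.000568). These 5 genes were called between the arms, and between GAPDH and non-silencing, under all 17 alternative settings.

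The topoisomerases and deubiquitinases were listed because TOP2B and USP25 were known from earlier results of these data to be low with GAPDH siRNA, so the list is not independent evidence about either. Of 27 listed, 23 were measured, 4 were called higher and 2 lower, beside 1.74% and 1.05% over all genes, with a median difference of 0.00. Besides TOP2B and USP25, TOP3A, a type IA topoisomerase that works with the BLM helicase, was higher by 0.50 (adjusted p = 0.0338) and TOP1, the type IB enzyme, by 0.33 (adjusted p = 0.0271). Their non-silencing means were 7.26 ± 0.11 and 9.35 ± 0.03, with Dcp2 means of 7.21 ± 0.18 and 9.46 ± 0.03 and GAPDH means of 6.70 ± 0.12 and 9.13 ± 0.06. TOP2A, the paralog that acts in dividing cells, was at 10.82 in the Dcp2 and 10.60 in the GAPDH group, with 10.73 ± 0.11 in non-silencing, and was not called (difference 0.23, adjusted p = 0.217). USP16, which removes ubiquitin from histone H2A, fell by 0.47 (adjusted p = 0.021, 8.30 ± 0.06 in non-silencing), and USP22, the deubiquitinase of the SAGA complex, fell by 0.28 (adjusted p = 0.0472, 10.11 ± 0.05 in non-silencing). None of TOP1, TOP3A, USP16 and USP22 was called when only the 6 arrays were fitted, or on leaving out Dcp2 replicate 1, 2 or 3 or GAPDH replicate 2 (adjusted p 0.0506 to 0.157 in these fits).

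For a second set of positive differences the non-silencing mean lay between the arms in value. KIF20A, the kinesin MKLP2 of cytokinesis, read 9.31, 9.40 and 9.50 on the Dcp2 arrays, 8.31, 7.76 and 8.31 on the GAPDH arrays and 8.48, 8.92 and 9.18 on the non-silencing arrays. The Dcp2 arrays were above all non-silencing arrays and the GAPDH arrays below them. The difference was 1.28 (SE 0.16, 95% interval 0.93 to 1.62, adjusted p = 0.00041). CDCA4, an E2F-regulated gene linked to cell division, read 7.82, 7.79 and 7.95 against 6.41, 6.48 and 6.85, a difference of 1.27 (SE 0.15, adjusted p = 0.000199). Its non-silencing arrays, at 6.88, 7.26 and 7.55, lay between the arms. BCL7A, a subunit of the SWI/SNF chromatin remodelling complexes, read 7.87, 7.83 and 7.88 against 6.68, 6.78 and 6.94 with 7.31 ± 0.01 in non-silencing, a difference of 1.06 (SE 0.10, adjusted p = 3.24e-05). Dcp2 minus non-silencing was 0.54 for KIF20A, 0.62 for CDCA4 and 0.55 for BCL7A (adjusted p = 0.0941, 0.0425 and 0.013), so the Dcp2 side of KIF20A did not pass. GAPDH minus non-silencing was -0.74, -0.65 and -0.51 (adjusted p = 0.0269, 0.0336 and 0.0132). The Dcp2 calls of CDCA4 and BCL7A against non-silencing were lost under 9 and 4 of 17 alternative settings. The GAPDH calls of KIF20A, CDCA4 and BCL7A were lost under 4, 5 and 3. On the DcpS arrays KIF20A read 9.72, 9.68 and 9.75, above the Dcp2 arrays, and on the LOC550643 arrays 9.09, 9.02 and 9.26.

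KCTD2, a BTB-domain protein of the potassium channel tetramerisation family, read 8.36, 8.39 and 8.45 on the Dcp2 arrays and 7.09, 7.09 and 7.41 on the GAPDH arrays, a difference of 1.20 (SE 0.13, adjusted p = 8.82e-05), with 8.05 ± 0.22 in non-silencing. GOLPH3L, a Golgi protein related to GOLPH3, read 7.92, 8.01 and 8.15 against 6.96, 6.62 and 6.86, a difference of 1.21 (SE 0.16, adjusted p = 0.000531), with 7.59 ± 0.25 in non-silencing. For both genes the GAPDH side passed against non-silencing, at -0.85 and -0.77 (adjusted p = 0.00231 and 0.0166), and the Dcp2 side did not, at 0.35 and 0.44 (adjusted p = 0.169 and 0.166). ZEB2-AS1, the antisense RNA of the transcription factor gene ZEB2, was dim, at 5.45, 4.93 and 5.49 against 4.26, 4.03 and 4.27 with 5.19 ± 0.38 in non-silencing. Its difference was 1.10 (adjusted p = 0.0187), but a second, dimmer probe set of the same RNA differed by only 0.09, and the call was lost without Dcp2 replicate 1 or 3 or GAPDH replicate 1 or 2 (adjusted p 0.0502 to 0.0896).

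Of 28 mitosis genes listed, 22 were measured, 6 were called higher with Dcp2 siRNA and 0 lower, beside 1.74% called higher over all genes. Cells build up these transcripts toward division. The DREAM and B-MYB/FOXM1 complexes, which regulate these genes, bind cell-cycle homology elements, with NF-Y bound at CCAAT boxes nearby. The 250 bases before the annotated start of 4 of the 6 called members are shown because the called members share a direction and these elements are short enough to be read in them. They come from RefSeq on GRCh38.p14 and are given 5′ to 3′ on the strand of the gene. Capitals mark the cell-cycle homology letters TTTGAA and the CCAAT letters, either as such or as ATTGG on the other strand. KIF20A lies on the plus strand at chr5:138178862-138179111, CENPA on the plus strand at chr2:26785806-26786055, MKI67 on the minus strand at chr10:128126424-128126673 and CCNF on the plus strand at chr16:2429197-2429446.
KIF20A: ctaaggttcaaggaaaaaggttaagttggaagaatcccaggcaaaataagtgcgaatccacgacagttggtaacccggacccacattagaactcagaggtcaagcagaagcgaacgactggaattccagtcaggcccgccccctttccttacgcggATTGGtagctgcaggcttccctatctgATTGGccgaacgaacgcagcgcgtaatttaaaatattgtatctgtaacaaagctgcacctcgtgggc
CENPA: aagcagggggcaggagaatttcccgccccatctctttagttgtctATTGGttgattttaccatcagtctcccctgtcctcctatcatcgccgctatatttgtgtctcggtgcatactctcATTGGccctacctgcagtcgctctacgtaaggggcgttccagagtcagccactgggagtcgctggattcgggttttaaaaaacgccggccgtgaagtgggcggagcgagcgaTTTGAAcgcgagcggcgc
MKI67: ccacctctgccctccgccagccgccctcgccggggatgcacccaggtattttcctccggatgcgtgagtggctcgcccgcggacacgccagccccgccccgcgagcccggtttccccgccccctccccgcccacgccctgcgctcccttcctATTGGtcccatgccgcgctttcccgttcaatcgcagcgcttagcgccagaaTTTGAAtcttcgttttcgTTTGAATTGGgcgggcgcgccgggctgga
CCNF: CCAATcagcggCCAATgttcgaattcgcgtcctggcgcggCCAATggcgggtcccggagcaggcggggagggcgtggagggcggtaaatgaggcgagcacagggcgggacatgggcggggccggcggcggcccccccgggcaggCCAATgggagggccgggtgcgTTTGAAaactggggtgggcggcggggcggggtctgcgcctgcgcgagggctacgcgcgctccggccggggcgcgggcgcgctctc

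TTTGAA, searched on both strands, was found in 13.3% and CCAAT in 32.0% of the 35116 promoter windows of this length. By gene, with any window counted, the shares were 16.1% and 37.0% of 27305 genes. Of the 21 measured mitosis members with a window, 13 held TTTGAA and 20 held CCAAT, and of the 6 called members 4 and 6. CENPA had TTTGAA from 18 to 13 bases before the start, MKI67 from 47 to 42 and from 29 to 24, and CCNF from 85 to 80. The one nearer the start in MKI67 shares a base with a CCAAT match from 24 to 20. The KIF20A window held CCAAT letters from 94 to 90 and from 67 to 63 and no TTTGAA. A match is a description of letters and not a measured site.

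The median difference of the 22 measured mitosis genes was 0.33 against 0.00 over all genes, and 20 of the 22 were positive. At an unadjusted p under 0.05 there were 13 higher and 0 lower. CENPA, the histone H3 variant of centromeres, read 8.25, 8.43 and 8.48 on the Dcp2 arrays, 7.49, 7.43 and 7.81 on the GAPDH arrays and 7.70 ± 0.25 in non-silencing, a difference of 0.81 (SE 0.14, adjusted p = 0.00366). The Dcp2 arrays overlapped neither of these groups, but the DcpS arrays were as high, at 8.41, 8.54 and 8.53, and the LOC550643 arrays read 7.73, 7.87 and 8.10. MKI67, which codes for the proliferation marker Ki-67, read 9.69, 9.75 and 9.55 against 8.74, 8.97 and 9.22, a difference of 0.68 (SE 0.16, adjusted p = 0.0257). Its non-silencing arrays, at 9.21, 9.77 and 9.56, overlapped the Dcp2 arrays. CCNF, the cyclin of an SCF ubiquitin ligase, read 8.37, 8.34 and 8.45 against 7.83, 7.88 and 7.74, a difference of 0.57 (SE 0.13, adjusted p = 0.0279, 7.96 ± 0.28 in non-silencing), and its DcpS arrays, at 8.59, 8.79 and 8.38, overlapped the Dcp2 arrays. The mitotic cyclin CCNB1 was higher by 0.55 (adjusted p = 0.0178, 8.30 ± 0.07 in non-silencing) and the kinase gene PLK1 by 0.41 (adjusted p = 0.0246, 10.50 ± 0.06).

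Other members did not pass the test. PTTG1, which encodes securin, differed by 0.72 (adjusted p = 0.0767, 6.24 ± 0.29 in non-silencing), the kinesin KIF23 by 0.55 (adjusted p = 0.0854, 9.17 ± 0.35 in non-silencing), AURKA by 0.43 (adjusted p = 0.134, 7.69 ± 0.24 in non-silencing) and the anaphase activator CDC20 by 0.37 (adjusted p = 0.0552, 9.18 ± 0.19 in non-silencing). The kinase CDK1 was at 0.15 and the spindle motor KIF11 at -0.11, with 8.98 ± 0.19 and 9.78 ± 0.03 in non-silencing. KIF20A and CENPA were called under all 17 alternative settings. MKI67, CCNF, CCNB1 and PLK1 were each lost on leaving out some of the Dcp2 replicates 1 to 3 or GAPDH replicates 1 to 3 (adjusted p 0.0545 to 0.119 where lost), and the count of called members was 2 without Dcp2 replicate 1 or GAPDH replicate 2, and it was 3 without Dcp2 replicate 2 or 3 or GAPDH replicate 1. Of 32 listed genes of DNA replication and the G1/S transition, 25 were measured and 0 were called by limma, with a median of -0.10, and at an unadjusted p under 0.05 there were 5 higher and 6 lower. TYMS, the thymidylate synthase, had the largest difference at -0.45 (adjusted p = 0.0779, 8.87 ± 0.20 in non-silencing).

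A pattern shared by arrays within groups ran along with several lists. The first principal component of the deviations from the group means held 24.7% of the within-group variance. Each array, with the mean of every gene over 15 arrays taken off, was projected on this component, so the scores hold differences between groups as well as within them. They were 10.67, 7.89 and 4.0 on the Dcp2 arrays, -1.01, -11.54 and 11.85 on the GAPDH arrays and -20.19, -0.81 and 4.09 on the non-silencing arrays. The Dcp2 group mean was 7.52 and the GAPDH mean -0.24, a gap smaller than the range within the GAPDH arrays. Within groups, over 15 arrays, the median correlation of members with this score was 0.58 for mitosis genes, 0.62 for immediate early genes, 0.59 for cholesterol synthesis, 0.55 for nonsense-mediated decay substrates, 0.52 for decapping and P-body genes, 0.49 for cytosolic chaperones, 0.47 for the hypoxia response and -0.52 for the integrated stress response. With the score as a covariate the difference was 1.16 for KIF20A, 0.79 for JUN and 0.76 for HSPA1B. The score was built from these same genes and its use takes out their spread by construction, so no p is given for that fit, and its part in the results was not tested.

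Immediate early genes are switched on quickly by growth factors and stress, and their mRNAs are short-lived. Of 42 immediate early and other short-lived transcripts listed, 31 were measured, 5 were called higher and 0 lower, beside 1.74% called higher over all genes, the median difference was 0.33, and 27 of the 31 were positive. At an unadjusted p under 0.05 there were 14 higher and 0 lower. JUN, a subunit of the AP-1 transcription factor, read 11.19, 11.03 and 11.12 on the Dcp2 arrays, 10.20, 9.74 and 10.34 on the GAPDH arrays and 9.25, 9.77 and 10.08 on the non-silencing arrays. Every Dcp2 array was above every other array of these groups, and the GAPDH and non-silencing arrays overlapped. The difference was 1.02 (SE 0.22, 95% interval 0.55 to 1.50, adjusted p = 0.0214). Dcp2 minus non-silencing was 1.42 (adjusted p = 0.00732) and GAPDH minus non-silencing 0.39 (adjusted p = 0.478). The 6 LOC550643 and DcpS arrays read 9.76 to 10.94, all below the 3 Dcp2 arrays. The SD was 0.08 in the Dcp2 group and 0.32 in the GAPDH group, and the test uses an estimate of spread shared by all groups.

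The JUN promoter is shown because JUN regulates its own gene through an element of the AP-1 and ATF type close to the start. The window is chr1:58784048-58784297, minus strand, GRCh38.p14, from RefSeq. Capitals mark a match to TGACNTCA, which both strands were searched for, from 67 to 60 bases before the start.
JUN: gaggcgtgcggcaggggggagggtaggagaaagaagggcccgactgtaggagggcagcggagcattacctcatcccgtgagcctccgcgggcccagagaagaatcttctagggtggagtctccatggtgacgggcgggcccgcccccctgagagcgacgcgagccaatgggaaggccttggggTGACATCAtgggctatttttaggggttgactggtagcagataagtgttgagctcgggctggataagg

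That motif was found in 6.87% of all windows of this length and in 8.29% of genes.

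TRIB1, a pseudokinase that guides the ubiquitin ligase COP1, read 7.22, 7.16 and 6.92 against 5.98, 6.0 and 6.36, a difference of 0.99 (SE 0.21, adjusted p = 0.0203, 6.33 ± 0.45 in non-silencing). ERRFI1, a feedback inhibitor of the EGF receptor, read 8.58, 8.45 and 8.51 against 7.72, 7.12 and 7.78, a difference of 0.97 (SE 0.23, adjusted p = 0.0339, 7.38 ± 0.44 in non-silencing). For both, the Dcp2 arrays were above the GAPDH and non-silencing arrays. The LOC550643 arrays of TRIB1, at 6.78, 6.85 and 7.24, overlapped the Dcp2 arrays, and Dcp2 minus non-silencing was not called for TRIB1 (0.77, adjusted p = 0.074). The 6 LOC550643 and DcpS arrays of ERRFI1 read 7.33 to 8.09, below its Dcp2 arrays. MYC, the growth-promoting transcription factor, was arranged otherwise, with 6.43, 6.28 and 6.54 on the Dcp2 arrays, 5.63, 5.71 and 5.79 on the GAPDH arrays and 6.26, 6.52 and 6.40 on the non-silencing arrays. Its GAPDH arrays were the low ones, at -0.68 against non-silencing (adjusted p = 0.00321), while its Dcp2 and non-silencing arrays overlapped. The difference between the arms was 0.70 (SE 0.11, adjusted p = 0.00193). SGK1, a kinase induced by serum and glucocorticoids, was higher by 0.47 (adjusted p = 0.0146), at 5.19 ± 0.11 against 4.72 ± 0.05 and 4.65 ± 0.11 in non-silencing (SD, n = 3 each).

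Several members with differences of similar size missed the threshold. The small GTPase gene GEM read 6.27, 6.18 and 6.48 against 5.58, 5.43 and 5.63 (0.76, 95% interval 0.29 to 1.24, adjusted p = 0.0846), with 4.31, 4.72 and 5.48 in non-silencing. The arms did not overlap, and the non-silencing arrays were the most scattered and overlapped the GAPDH arrays. DUSP1, a phosphatase of MAP kinases, differed by 0.73 (95% interval 0.19 to 1.27, adjusted p = 0.157, 7.71 ± 0.51 in non-silencing), the stress transcription factor ATF3 by 0.69 (95% interval 0.09 to 1.29, adjusted p = 0.233, 6.89 ± 0.65), KLF6 by 0.48 (adjusted p = 0.341, 6.84 ± 0.54), FOS by 0.33 and EGR1 by 0.33 (adjusted p = 0.204 and 0.21, 5.44 ± 0.23 and 5.93 ± 0.19 in non-silencing). In value the GAPDH mean of GEM, DUSP1, ATF3 and KLF6 lay between the non-silencing and Dcp2 means. For these genes, in this order, Dcp2 minus non-silencing was called at 1.47, 1.25, 1.41 and 0.98 (adjusted p = 0.00521, 0.0241, 0.023 and 0.0425). Those calls were lost under 1, 6, 6 and 7 of 17 alternative settings. MYC was called under all 17 alternative settings. JUN, TRIB1 and ERRFI1 lost the call on leaving out Dcp2 replicate 1, Dcp2 replicate 2, GAPDH replicate 1 or GAPDH replicate 2, and JUN, ERRFI1 and SGK1 lost it on leaving out Dcp2 replicate 3 (adjusted p 0.0502 to 0.168 where lost). The count of called members was 2 without each of these 5 arrays.

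In the decapping machinery itself DCP2 and 1 other transcript were called between the arms. Of 24 decapping and P-body genes listed, 14 were measured, with a median of 0.11. Among them 1 was called higher and DCP2 lower, beside 1.74% and 1.05% over all genes. The called member was DCP1B, an activating partner of DCP2, which read 6.05, 6.14 and 6.22 on the Dcp2 arrays, 5.73, 5.52 and 5.48 on the GAPDH arrays and 5.87, 5.91 and 5.90 on the non-silencing arrays. The Dcp2 arrays were above and the GAPDH arrays below the reference, with a difference of 0.56 (SE 0.09, 95% interval 0.36 to 0.76, adjusted p = 0.00355). This call between the arms held under all 17 alternative settings. Against non-silencing neither arm of DCP1B was called, with Dcp2 at 0.24 (adjusted p = 0.194) and GAPDH at -0.32 (adjusted p = 0.108). The LOC550643 arrays read 6.13, 6.07 and 5.95 and the DcpS arrays 6.21, 6.36 and 6.43, both overlapping the Dcp2 arrays. Its paralog DCP1A was at 0.39 (95% interval 0.04 to 0.73, adjusted p = 0.243, 8.19 ± 0.32 in non-silencing) and DDX6 at 0.26 (95% interval 0.05 to 0.47, adjusted p = 0.2, 10.02 ± 0.09). XRN1 read 7.12, 7.18 and 7.31 against 7.53 on each of the 3 GAPDH arrays, with 7.63 ± 0.14 in non-silencing, a difference of -0.32 (95% interval -0.53 to -0.11, adjusted p = 0.0976). The 3 GAPDH values were identical, and DcpS replicate 3 held the same value, so their lack of spread is not a measure of precision. Dcp2 minus non-silencing was called for XRN1 at -0.43 (adjusted p = 0.0372), a call lost under 8 of 17 alternative settings. The scaffold EDC4 was at 0.14, EDC3 at 0.15 and PATL1 at 0.15, none called, with 7.33 ± 0.17, 8.16 ± 0.43 and 9.55 ± 0.18 in non-silencing.

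The list of deadenylases and the RNA exosome, which degrades RNA from its 3′ end, held 35 genes, of which 21 were measured. Among them 0 were called higher and 1 lower, beside 1.74% and 1.05% over all genes. EXOSC9, a structural subunit of the exosome ring, was lower at 7.99, 7.92 and 7.87 against 8.34, 8.33 and 8.75 (difference -0.55, SE 0.12, adjusted p = 0.0237, 8.19 ± 0.10 in non-silencing). The call was lost when only the 6 arrays were fitted and without Dcp2 replicate 1, 2 or 3 or GAPDH replicate 3 (adjusted p 0.0613 to 0.0877). No other member was called, among them EXOSC5 at -0.45 (adjusted p = 0.285, 8.64 ± 0.35 in non-silencing) and EXOSC8 at -0.38 (adjusted p = 0.201, 7.71 ± 0.27 in non-silencing). Of 17 factors of nonsense-mediated decay, which removes mRNAs with premature stop codons, 8 were measured and 0 called by limma, with 0 higher and 1 lower at an unadjusted p under 0.05. NBAS came nearest, at 7.34, 7.51 and 7.62 against 7.94, 8.16 and 7.87 (difference -0.50, adjusted p = 0.0526, 7.91 ± 0.22 in non-silencing), and the helicase UPF1 was at 0.02 (8.74 ± 0.18 in non-silencing).

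Transcripts known as targets of nonsense-mediated decay were mostly positive in value. Of 22 listed, 16 were measured, and 14 were positive, with a median of 0.21 against 0.00 over all genes. Among the 16, 1 was called higher, beside 1.74% over all genes. The list shares ATF3, ATF4 and DDIT3 with the immediate early or stress lists. Its members also followed the array score within groups (median correlation 0.55), and the part of that score in these values was not tested. The called member was SRSF3, a splicing factor gene with a poison exon, at 9.80, 9.79 and 9.85 against 9.44, 9.36 and 9.47 (difference 0.39, SE 0.09, adjusted p = 0.0312, 9.55 ± 0.09 in non-silencing). It was not called after median centring or without Dcp2 replicate 1, 2 or 3 or GAPDH replicate 1 or 2, among others (adjusted p 0.0592 to 0.131). The small nucleolar RNA host SNHG15 was at 0.65 (adjusted p = 0.232, 6.64 ± 0.36 in non-silencing) and GAS5 at 0.22 (adjusted p = 0.477, 9.37 ± 0.16 in non-silencing). These arrays measure whole genes, and splice forms with and without the premature stop were not told apart.

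Stress lists gave few calls, beside 1.74% of all genes called higher and 1.05% called lower. In the integrated stress response, the translational programme around ATF4, 12 of 23 genes were measured and DDIT4, an inhibitor of mTORC1, was called. It read 8.25, 8.08 and 7.95 against 7.30, 7.15 and 7.32, a difference of 0.84 (SE 0.20, adjusted p = 0.0371, 7.37 ± 0.39 in non-silencing), and it was not called on leaving out any of the 6 arrays (adjusted p up to 0.151). SESN2 was at 0.54 (adjusted p = 0.0772, 7.09 ± 0.33 in non-silencing), DDIT3 at 0.48 (adjusted p = 0.0966, 5.07 ± 0.17 in non-silencing) and ATF4 at 0.28 (adjusted p = 0.0842, 10.02 ± 0.03 in non-silencing). In the endoplasmic reticulum folding list, with 10 of 19 measured, XBP1, a transcription factor of the unfolded protein response, rose by 0.45 (adjusted p = 0.0214, 8.39 ± 0.09 in non-silencing), a call lost without Dcp2 replicate 1, 2 or 3 or GAPDH replicate 1 or 2 (adjusted p 0.052 to 0.0944). ERO1B of the same list fell, as described with the lower genes. The remaining 8 members lay between -0.11 and 0.32.

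Of 19 cytosolic chaperone genes listed, 10 were measured and 3 were called higher with Dcp2 siRNA, beside 1.74% over all genes. Because 2 of the 3 are near-identical copies, the calls amount to 2 observations. HSPA1B read 12.14, 11.75 and 11.90 on the Dcp2 arrays, 11.03, 10.55 and 11.37 on the GAPDH arrays and 10.88, 11.30 and 11.49 on the non-silencing arrays, a difference of 0.95 (SE 0.20, adjusted p = 0.0156). The 3 Dcp2 arrays lay above both of these groups, which overlapped. The DcpS arrays were as high as the Dcp2 arrays, at 11.71, 11.99 and 12.07, and the LOC550643 arrays read 11.09, 11.39 and 11.59. Dcp2 minus non-silencing was 0.71 and was not called (adjusted p = 0.0757). HSPA1A gave 0.92 (SE 0.19, adjusted p = 0.0149, 10.93 ± 0.32 in non-silencing). HSPA1A and HSPA1B are the near-identical HSP70 genes, whose probes cannot be assigned to one of them. HSPH1, the HSP110 partner of HSP70, was higher by 0.40 (adjusted p = 0.0305, 8.36 ± 0.07 in non-silencing). BAG3 was at 0.48 (adjusted p = 0.13, 7.46 ± 0.31 in non-silencing) and the regulator HSF1 at -0.10 (7.69 ± 0.20 in non-silencing). Without Dcp2 replicate 1 or GAPDH replicate 2 none of the 3 was called (adjusted p 0.079 to 0.144), and 1 was called without Dcp2 replicate 3 or when only the 6 arrays were fitted.

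In the lists on glucose metabolism, single transcripts were called, and metabolism itself was not measured. Of 23 glycolytic genes 9 were measured, and GAPDH, the siRNA target, was the called one, beside 1.74% called higher over all genes. PGAM1 was at -0.38 (adjusted p = 0.177, 8.57 ± 0.21 in non-silencing), TPI1 at 0.30 (adjusted p = 0.293, 7.24 ± 0.14 in non-silencing), and PGK1, LDHA, GPI and HK2 at 0.16, 0.14, -0.05 and 0.14, with 8.73 ± 0.20, 6.24 ± 0.15, 11.15 ± 0.04 and 6.98 ± 0.04 in non-silencing. Of 12 genes of the pentose phosphate pathway and glucose sensing 11 were measured, with a median of -0.12. Among them 2 were called lower, beside 1.05% over all genes. RPIA, the ribose 5-phosphate isomerase, read 6.42, 6.72 and 7.0 on the Dcp2 arrays, 7.68, 7.64 and 7.70 on the GAPDH arrays and 7.42, 7.48 and 7.40 on the non-silencing arrays. The Dcp2 arrays were the low and scattered ones, with a difference of -0.96 (SE 0.12, 95% interval -1.20 to -0.71, adjusted p = 0.000276). ARRDC4, an alpha-arrestin induced by glucose, read 8.63, 8.80 and 8.71 against 9.77, 9.44 and 9.73, a difference of -0.93 (SE 0.17, adjusted p = 0.00638), with 8.71, 9.13 and 9.30 in non-silencing, 9.83, 9.81 and 9.79 with LOC550643 siRNA and 7.65, 8.22 and 8.42 with DcpS siRNA. Against non-silencing neither arm of ARRDC4 was called, with Dcp2 at -0.33 (adjusted p = 0.359) and GAPDH at 0.60 (adjusted p = 0.094). The paralogs of ARRDC4 were not called between the arms. TXNIP was at -0.29 (95% interval -0.66 to 0.09, adjusted p = 0.478, 9.86 ± 0.42 in non-silencing) and ARRDC3 at 0.70 (95% interval 0.03 to 1.38, adjusted p = 0.293, 6.62 ± 0.74). For TXNIP, GAPDH minus non-silencing was called at 0.97 (adjusted p = 0.00798), and Dcp2 minus non-silencing, at 0.69, was not (adjusted p = 0.0569).

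Among the genes with the largest negative differences, one set was low in the Dcp2 arm with the GAPDH arm at the reference level. RRP1B, a nucleolar protein that brings protein phosphatase 1 to the nucleolus, read 7.94, 7.88 and 7.99 on the Dcp2 arrays, 8.86, 9.04 and 8.69 on the GAPDH arrays and 8.98, 8.92 and 8.74 on the non-silencing arrays. The Dcp2 arrays were the low ones, the other 2 groups overlapped, and the 6 LOC550643 and DcpS arrays read 8.76 to 9.14. The difference was -0.93 (SE 0.12, 95% interval -1.18 to -0.68, adjusted p = 0.000395). BCL2, the antiapoptotic protein gene, read 5.23, 5.31 and 5.03 against 5.94, 6.19 and 5.81 with 6.06, 6.13 and 5.91 in non-silencing, a difference of -0.79 (SE 0.11, adjusted p = 0.00112). The DcpS arrays of BCL2 were also low, at 5.34, 5.26 and 5.52, and overlapped the Dcp2 arrays, while the LOC550643 arrays read 5.98, 5.90 and 6.03. BCL2 was the called member among 16 measured of 21 apoptosis regulators, beside 1.05% called lower over all genes. Next in size were BIK at -0.35 (adjusted p = 0.243, 4.28 ± 0.14 in non-silencing) and MCL1 at 0.41 (adjusted p = 0.252, 7.53 ± 0.38 in non-silencing). ERO1B, an oxidoreductase that drives disulfide formation in the endoplasmic reticulum, read 5.70, 5.84 and 6.03 against 6.93, 7.05 and 6.57, a difference of -1.0 (SE 0.12, adjusted p = 0.000303), with 6.76, 6.70 and 6.65 in non-silencing and 6.51 to 6.99 on the 6 LOC550643 and DcpS arrays. Against non-silencing the Dcp2 arrays were at -0.94 for RRP1B, -0.84 for BCL2 and -0.85 for ERO1B (adjusted p = 0.00137, 0.00237 and 0.00418), and the GAPDH arrays at -0.01, -0.05 and 0.15.

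BABAM1, a subunit of the BRCA1-A and BRISC deubiquitinase complexes, read 8.12, 8.07 and 8.04 on the Dcp2 arrays and 9.14, 9.13 and 9.04 on the GAPDH arrays, with 8.92, 8.77 and 8.80 in non-silencing. The Dcp2 arrays lay below all others, and the 6 LOC550643 and DcpS arrays read 8.57 to 9.08. The difference was -1.03 (SE 0.09, 95% interval -1.22 to -0.84, adjusted p = 1.66e-05), and the Dcp2 arrays were -0.76 from non-silencing (adjusted p = 0.00106). VPS4B, an ATPase that disassembles ESCRT-III, read 6.24, 6.47 and 6.52 against 7.27, 7.34 and 7.29, a difference of -0.89 (SE 0.11, adjusted p = 0.000276, 7.02 ± 0.13 in non-silencing). TMEM143, a mitochondrial membrane protein, fell by 0.86 (adjusted p = 0.0117, 7.19 ± 0.19 in non-silencing), a call lost without Dcp2 replicate 1 or 2 or GAPDH replicate 1 or 2 (adjusted p 0.052 to 0.0713). STAG1, a cohesin subunit, was dim, at 3.88, 4.16 and 3.81 against 4.90, 4.88 and 4.64 with 4.47 ± 0.09 in non-silencing, and its difference was -0.86 (adjusted p = 0.0077). Dcp2 minus non-silencing was called for VPS4B, at -0.61 (adjusted p = 0.0111). It was not called for TMEM143, at -0.63, or STAG1, at -0.52 (adjusted p = 0.0695 and 0.104). GAPDH minus non-silencing was 0.28 for VPS4B, 0.23 for TMEM143 and 0.34 for STAG1, none called.

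Other negative differences came with a GAPDH arm above the reference. EPDR1, an ependymin-related glycoprotein, read 5.70, 5.28 and 5.84 on the Dcp2 arrays, 6.70, 6.47 and 6.21 on the GAPDH arrays and 5.44, 5.69 and 5.37 on the non-silencing arrays. Its GAPDH arrays were the high ones, at 0.96 above non-silencing (adjusted p = 0.00526) and with 5.56 to 6.11 on the 6 LOC550643 and DcpS arrays, and its Dcp2 and non-silencing arrays overlapped. The difference between the arms was -0.85 (SE 0.16, adjusted p = 0.00932), a call lost without Dcp2 replicate 2 or GAPDH replicate 1 (adjusted p 0.0544 and 0.0513). ENPP5, a membrane nucleotide pyrophosphatase family member, read 5.64, 5.54 and 5.72 against 6.48, 6.79 and 6.40, a difference of -0.92 (SE 0.14, adjusted p = 0.00191), with 5.82, 5.81 and 5.91 in non-silencing. Its LOC550643 arrays were as high as the GAPDH arrays, at 6.65, 6.69 and 6.33, and its DcpS arrays read 5.60, 6.11 and 6.10. GAPDH minus non-silencing was 0.71 for ENPP5 (adjusted p = 0.0141), a call lost under 4 of 17 alternative settings. SESN3, a sestrin that restrains mTORC1, read 7.30, 7.53 and 7.40 against 8.33, 8.34 and 8.36, a difference of -0.94 (SE 0.14, adjusted p = 0.0018), with 7.43, 8.0 and 7.84 in non-silencing. Its LOC550643 arrays read 8.25, 8.16 and 8.20 and its DcpS arrays 7.65, 8.18 and 8.04. GAPDH minus non-silencing was 0.59 for SESN3 (adjusted p = 0.0433), a call lost under 9 of 17 alternative settings. CD68, a lysosomal protein best known from macrophages, read 6.68, 7.01 and 6.71 against 7.49, 7.50 and 7.32 with 6.42, 6.41 and 6.17 in non-silencing. The GAPDH arrays were above both other groups and above the LOC550643 and DcpS arrays, which read 6.04 to 6.55, with a difference of -0.64 (SE 0.11, adjusted p = 0.00357) and 1.10 for GAPDH minus non-silencing (adjusted p = 3.60e-05). The Dcp2 arrays of CD68 also lay above the non-silencing, LOC550643 and DcpS arrays. Dcp2 minus non-silencing was called at 0.47 (adjusted p = 0.0349), a call lost under 9 of 17 alternative settings. CD68 was the called member of the blood cell marker list, beside 1.05% called lower over all genes. Of the other 4 measured blood markers 0 were called, with CD34 at -0.17 and NKG7 at -0.10 (4.37 ± 0.06 and 4.96 ± 0.14 in non-silencing).

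In growth factor signalling, MTOR, the kinase of the mTOR complexes, fell by 0.53 (SE 0.13, adjusted p = 0.0336), at 6.98, 7.18 and 7.06 against 7.44, 7.83 and 7.52 with 7.68 ± 0.16 in non-silencing. It was the called member of 18 measured genes of insulin and IGF signalling (27 listed), beside 1.05% called lower over all genes. The call was lost when only the 6 arrays were fitted and without Dcp2 replicate 1, 2 or 3 or GAPDH replicate 2 (adjusted p 0.0617 to 0.167). The binding protein gene IGFBP5 was at -0.57 (adjusted p = 0.103, 8.69 ± 0.28 in non-silencing) and IRS4 at -0.37 (95% interval -0.91 to 0.18, adjusted p = 0.549). In sphingolipid metabolism, with 17 of 24 measured, SGPL1 and SGMS1 moved in opposite directions. They were the called members, beside 1.74% called higher and 1.05% called lower over all genes. SGPL1, the lyase that ends the pathway by cleaving sphingosine 1-phosphate, read 5.25, 5.63 and 5.87 against 6.23, 6.42 and 6.17 with 6.91, 6.84 and 6.60 in non-silencing, a difference of -0.69 (SE 0.16, adjusted p = 0.0256). The GAPDH mean lay between those of the Dcp2 and non-silencing arrays. SGMS1, a sphingomyelin synthase of the Golgi, rose by 0.56 (SE 0.12, adjusted p = 0.0181, 6.75 ± 0.13 in non-silencing). Neither was called without Dcp2 replicate 1 or 2 or GAPDH replicate 2 (adjusted p 0.0503 to 0.131).

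In the hypoxia list, with 12 of 18 measured, the growth factor gene VEGFA rose by 0.49 (adjusted p = 0.0267, 6.83 ± 0.04 in non-silencing) and the oxidoreductase gene ERO1A, the paralog of ERO1B, fell by 0.34 (adjusted p = 0.0304, 8.57 ± 0.03). No other member was called, beside 1.74% called higher and 1.05% called lower over all genes. The calls of VEGFA and ERO1A were lost without Dcp2 replicate 1 or 2 or GAPDH replicate 1 or 2 (adjusted p 0.0826 to 0.133). Of 30 KRAB zinc finger genes, transcriptional repressors, 28 were measured and ZNF45 was called at 0.60 (adjusted p = 0.0271, 5.10 ± 0.05 in non-silencing), a call lost when only the 6 arrays were fitted and on leaving out Dcp2 replicate 1, 2 or 3 or GAPDH replicate 2 or 3 (adjusted p 0.0536 to 0.118). ZNF45 was the only call in this list, beside 1.74% called higher over all genes. ZNF14 had a larger value at 0.84 without passing (adjusted p = 0.115, 4.29 ± 0.46 in non-silencing).

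Further lists held no gene called by limma. Of 10 measured p53 targets, 1 higher and 4 lower at an unadjusted p under 0.05, TP53INP1 had the largest difference, at -0.42 (adjusted p = 0.243, 7.12 ± 0.34 in non-silencing). Of 17 measured interferon response genes, which siRNA can induce, with 0 higher and 3 lower at an unadjusted p under 0.05, BST2 was the largest, at -0.43 (adjusted p = 0.184, 3.64 ± 0.07), with a list median of -0.11. Of 13 measured cholesterol synthesis genes, with a median of 0.18, 10 positive values and 4 higher at an unadjusted p under 0.05, HMGCS1 was the largest, at 0.56 (95% interval 0.09 to 1.03, adjusted p = 0.216, 8.48 ± 0.58). Of 16 measured actin and SRF target genes 1 was higher and 0 were lower at an unadjusted p under 0.05.

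**Figure D4:**
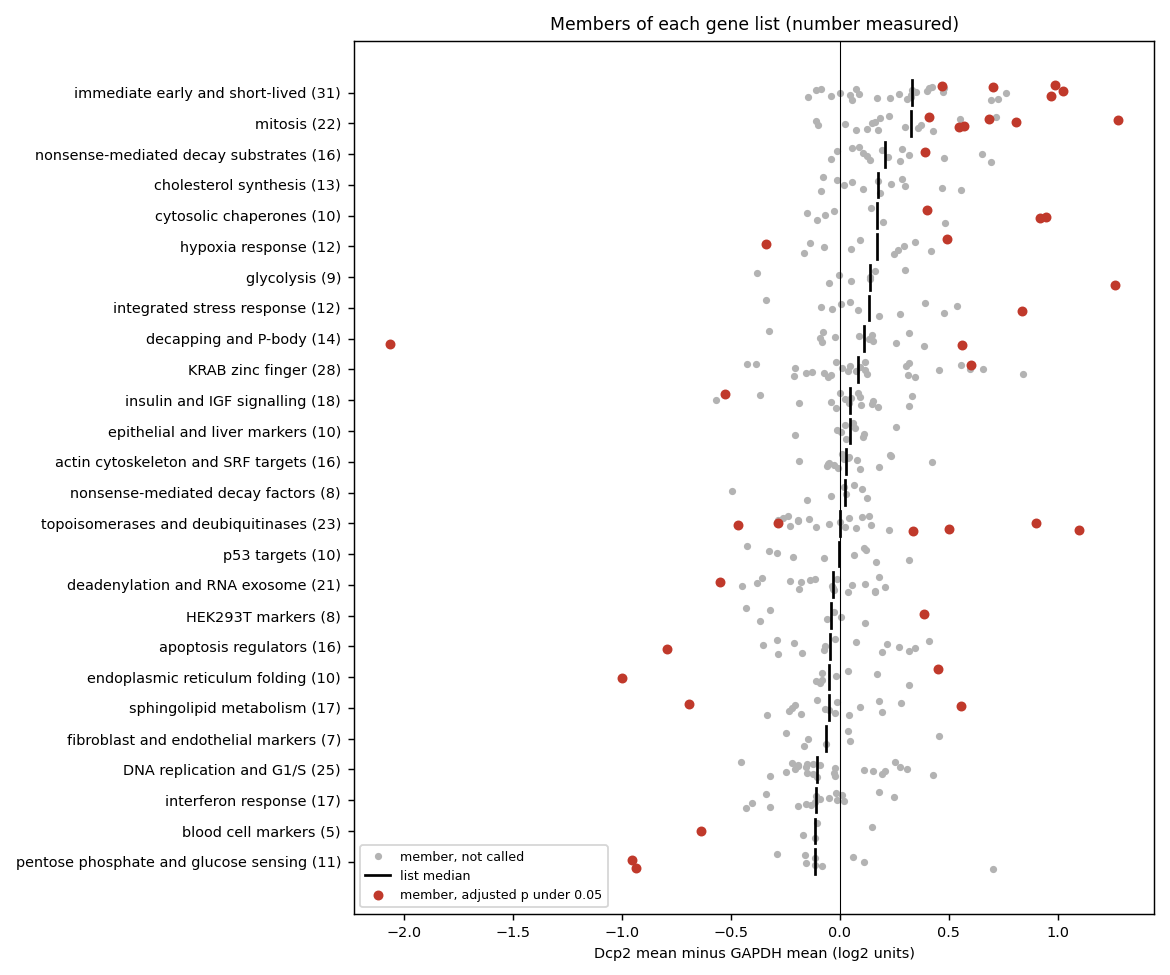
Difference between the Dcp2 and GAPDH means (log2 units, horizontal axis) of each measured member of 26 gene lists, with the number measured in brackets. Red points are members called at an adjusted p under 0.05, grey points are others, and black bars are list medians. The medians of the immediate early and mitosis lists, each 0.33, lie farthest to the right, and most lists are spread around 0.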

How the data were processed

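Each of the 15 arrays was given as a table of log2 values for 53617 probe sets, which the authors deposited after RMA (background correction, quantile normalization and median polish) with the oligo package, per the submitters' processing notes. Versions are not given in the sources used here, and the log base was inferred from the range of the values. Because quantile normalization forces arrays to one distribution, only relative differences can be read.

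Of the probe sets 16098 carried 1 gene symbol, 0 several and 37519 none. The probe set with the highest mean over 15 arrays was kept per gene, which left 14884 genes, 779 of them with several probe sets. One mean per group was fitted over all 15 arrays in limma 3.58.1 (R 4.3.3; the data.table package was at version 1.17.8), with 10 residual degrees of freedom, two-sided moderated tests and Benjamini-Hochberg adjustment over all genes. A gene was called at an adjusted p under 0.05. Intervals and SE come from this fit, and 3 arrays per group limit the precision. The code was tested on simulated data. Tables and figures used pandas 2.3.3 and matplotlib 3.10.9.

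The members and the 26 gene lists were chosen with earlier results of these data known. Named were DCP2 and GAPDH, the 12 largest called changes in each direction without overlap between arms (small RNAs and olfactory receptors left out), up to 4 called members per list, and the largest change of a list with no call. GEM, ATF3, DUSP1, KLF6, DCP1A, DDX6, XRN1, CCNB1, PLK1, SGK1, TOP1, USP22, TXNIP, ARRDC3, IRS4 and further list members without a call were named after their values were seen. LOC550643 and DCPS were not analysed here, since no named probe set matched. siRNA sequences are not given in the sources used here. Same-numbered Dcp2 and GAPDH arrays were not treated as pairs. The largest change of the actin and SRF target list is not reported here.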

Additional observations from a re-analysis of the deposited data

Results flagged for a closer look

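Probe sets without a gene symbol were kept out of the comparison. Of these 37519, fitted in the same way, 105 (0.28%) were called between Dcp2 and GAPDH siRNA by limma, 66 of them higher and 39 lower with Dcp2 siRNA. They are flagged because they lie outside the genes reported on, and what they measure was not analysed here.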

How the results depend on the processing

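Of the 55 named genes that were called, 26 were called under all 17 alternative settings, DCP2, GAPDH, TOP2B, KIF20A and BABAM1 among them, and 29 were not called under at least 1, 13 of these only when an array was left out. Where a call was lost the adjusted p lay between 0.0502 and 0.19, and no named difference changed sign where called. Over all genes 259 were higher and 156 lower. Leaving out each array of the arms in turn gave 124 to 228 higher and 55 to 172 lower genes, with DCP2 between -2.13 and -2.01 and GAPDH between 1.13 and 1.34. Leaving out a non-silencing array, an alternative chosen after seeing the data, gave up to 293 higher genes. Fitting only the 6 compared arrays gave 196 higher and 77 lower genes, 241 of these 273 shared with the 415. Other scalings, filters and fits gave 362 to 506 calls, and the array score as a covariate, which takes out spread by construction, gave 558.

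Same-numbered Dcp2 and GAPDH arrays did not deviate together (correlations -0.01, -0.01 and -0.14), and none of these arrays correlated best with its own number. With 3 arrays per group and only these groups compared, this cannot show whether the numbers mark a shared batch. On the array score, replicate 3 was the highest of its group in every group but Dcp2, where it was the lowest. With the replicate block 457 genes were called, 290 higher and 167 lower, 385 of them shared, and LHX1 and USP22 were lost.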
